A study of Mus musculus with 4 samples.

Results

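The genes described here encode the MHC class II presentation machinery. They are 9 genes of the 55487 in each gene table, taken by name: the chain genes H2-Aa, H2-Ab1 and H2-Eb1, the peptide editors H2-DMa, H2-DMb1, H2-DMb2 and H2-Oa, the invariant chain gene Cd74 and the transactivator gene Ciita. RNA was sequenced from 4 libraries labelled as regulatory T cells of mouse skin, 2 without and 2 with narrow-band ultraviolet B (UVB), each group numbered 1 and 2. All mice had shaved backs and received 60 mg a day of a cream with 5% imiquimod, a TLR7 agonist that induces psoriasis-like dermatitis, so the comparison group is inflamed skin and not healthy skin. The UVB group was additionally irradiated 3 times, once every other day. Strain, age, sex, the markers used for the sort and the number of animals per library are unknown from the sources used here. No source says that the libraries of a group came from separate animals, so their spread may be technical.

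MHC class II molecules are pairs of an alpha and a beta chain that display peptides from engulfed proteins to CD4 T cells. They assemble in the endoplasmic reticulum with the invariant chain, which fills the groove and is then cut by cathepsins in endosomes, after which H2-DM exchanges the last fragment for peptide and H2-O restrains H2-DM. Expression is largely a property of dendritic cells, Langerhans cells, macrophages and B cells, and it depends on the coactivator CIITA. Mouse T cells are generally regarded as making little class II of their own. The 9 genes were chosen by their TPM values in these same libraries, in the comparison by UVB as well as in that by replicate number. Their differences are therefore given as a description, with no p-value.

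All H2 genes named here lie on chromosome 17 (GRCm38), with H2-DMa at 34119541 to 34139101, H2-DMb2 at 34143307 to 34151555, H2-DMb1 at 34153072 to 34160230, H2-Ab1 at 34257689 to 34269419, H2-Aa at 34282744 to 34287823 on the minus strand and H2-Eb1 at 34305867 to 34316674. Class II promoters are known for an X box, bound by the RFX complex, followed by a Y box, bound by NF-Y. RefSeq promoter sequences (GRCm38.p6, 250 bases before to 50 after the start) were at hand for 6 of the 9 genes, that is H2-Aa, H2-Eb1, H2-DMa, H2-DMb1, H2-DMb2 and H2-Oa. The stretch up to the Y-box letters is shown for a gene of each role because class II genes are known for sharing these boxes. Capitals mark ATTGG, the core of the Y box, GCAAC, a core of the X box, and GATGATGCT, the longest run that a script found in common upstream of H2-Eb1, H2-DMb1 and H2-DMb2.
H2-Aa, chr17:34287867-34287946, minus strand: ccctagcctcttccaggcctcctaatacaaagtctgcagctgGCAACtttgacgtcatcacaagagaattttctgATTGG
H2-Eb1, chr17:34305733-34305812, plus strand: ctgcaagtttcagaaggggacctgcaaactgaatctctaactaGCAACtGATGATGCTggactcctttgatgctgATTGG
H2-DMb2, chr17:34145084-34145163, plus strand: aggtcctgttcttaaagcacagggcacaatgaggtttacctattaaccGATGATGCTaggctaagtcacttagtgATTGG
H2-Oa, chr17:34092261-34092340, plus strand: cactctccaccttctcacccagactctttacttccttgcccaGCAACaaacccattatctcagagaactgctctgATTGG

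In the 250 bases before the start, on either strand, ATTGG was present in all 6 genes and in 33.8% of 32851 promoters, and GCAAC in 4 of the 6 and in 29.9% of promoters. GCAAC followed by ATTGG on the same strand, with starts 15 to 30 bases apart, was found in none of the 6 and in 0.658% of promoters. At 31 to 35 bases, a range set after the sequences were seen, the pair was found in H2-Aa, H2-Eb1 and H2-Oa and in 0.213% of promoters. GATGATGCT, likewise taken after the sequences were seen, was in H2-Eb1, H2-DMb1 and H2-DMb2 and in 0.222% of promoters. These are matches of letters, and no binding was measured.

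The libraries were unequal in ways that touch these genes. The values rest on about 34100000, 24700000, 42000000 and 23800000 reads in non-UVB 1, non-UVB 2, UVB 1 and UVB 2, and 1 read in a gene of 1 kb is worth between 0.0369 and 0.0612 TPM (the deposited length-scaled transcript abundance), the unit of all levels below. Of 77 mitochondrial ribosomal protein genes, which nearly every cell uses, 15, 5, 3 and 2 were listed at 0 in those libraries, so a 0 is reported only as listed. The labelled cell type was checked against its defining factor Foxp3, which was listed at 0 in non-UVB 1 and at 3.49 TPM in UVB 1, while non-UVB 2 had 19.4 and UVB 2 had 19.3 TPM. Cd3g, a subunit of the T cell receptor complex, had 2560 and 2701 TPM in the libraries numbered 1 and 968 and 848 TPM in those numbered 2. The gamma-delta receptor segment Trdv4 had 4422 and 3531 TPM against 119 and 159 TPM, and keratin Krt14 had 101 and 214 TPM against 1526 and 1232 TPM. Of the 12 CD4 and regulatory T cell markers, 6 were higher and 2, Cd3g and Cd3e, lower in number 2 without overlap, all 9 gamma-delta markers were lower, and of 11 keratinocyte markers 8 were higher. Among all genes tested, 22.5% were higher and 18.5% lower in number 2 without overlap. By UVB, 12 CD4 and regulatory T cell markers had 5 higher and 7 lower means with UVB, the 9 gamma-delta markers found had 6 and 3, and the 11 keratinocyte markers tested had 6 and 5, with 0 past the test in each. Of all genes tested, 61.0% had a higher mean with UVB. The libraries numbered 1 thus held little Foxp3 and much gamma-delta receptor RNA, and those numbered 2 held more keratinocyte RNA.

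Class II RNA was present in every library, with Cd74 and H2-Ab1 among the more abundant transcripts. The 9 genes together took 0.633% and 0.352% of TPM in non-UVB 1 and 2 and 0.825% and 0.801% in UVB 1 and 2. Cd74 ranked 21st and 52nd of all genes in the non-UVB libraries and 11th and 23rd in the UVB libraries. H2-Ab1 ranked 61st and 169th without UVB and 43rd in both UVB libraries. The lower members stood far down, with H2-DMa at ranks 2991 and 5995 without UVB and 1361 and 1829 with it. Per length, mean levels over the 4 libraries fell in the order Cd74, H2-Ab1, H2-Aa, H2-Eb1, H2-DMb1, H2-DMa, H2-DMb2, H2-Oa and Ciita. Cd74 stood above H2-Ab1, and H2-Ab1 above H2-Aa, in each of the 4 libraries, although the ranges of these neighbours overlapped between libraries. Only H2-Eb1 and H2-DMb1, among neighbours above 0 in all libraries, had ranges that did not overlap, the lowest H2-Eb1 value being 258 TPM and the highest H2-DMb1 value 214 TPM. H2-DMa exceeded H2-DMb2 in 2 of 4 libraries, so their order was not settled.

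**Figure D1:**
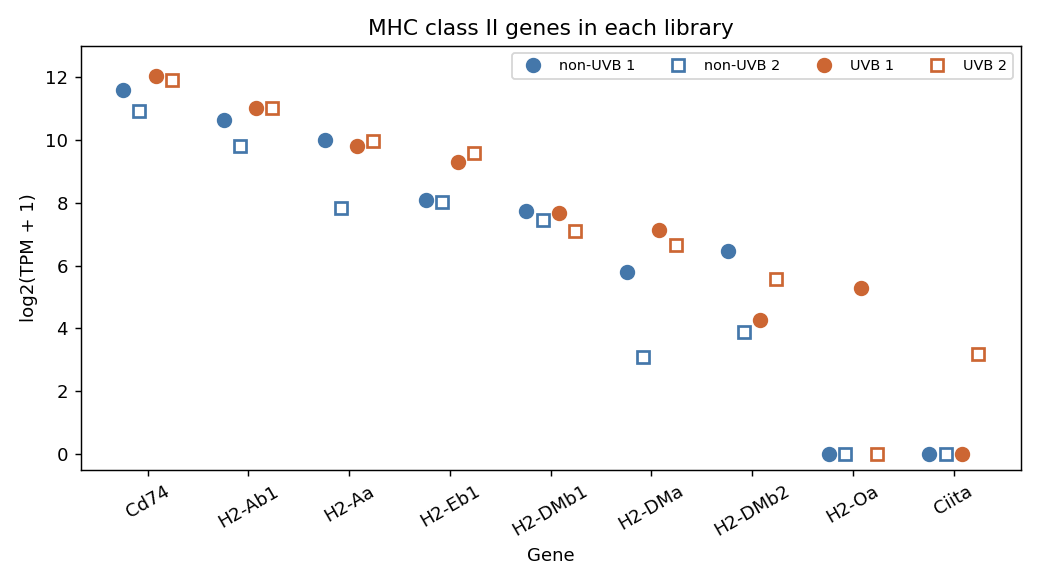
Level of each of the 9 genes, as log2(TPM + 1) on the vertical axis, in the 4 libraries (blue, non-UVB; orange, UVB; circles, number 1; open squares, number 2). Cd74 and H2-Ab1 are highest in every library, non-UVB 2 is the lowest library for H2-Aa and H2-DMa, and H2-Oa and Ciita are above 0 in 1 library each.

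The chain genes were higher with UVB for H2-Ab1 and H2-Eb1, and depended on 1 library for H2-Aa. H2-Ab1, the beta chain of I-A, had 1586 and 892 TPM in non-UVB 1 and 2 and 2091 and 2102 TPM in UVB 1 and 2. The UVB values were nearly equal to each other and lay above both non-UVB values. The difference was 0.82 ± 0.39 log2 (SE, n = 2 per group), on the log2(TPM + 1) scale used for all differences, which understates changes of low genes. H2-Eb1, the beta chain of I-E, had 270 and 258 TPM in non-irradiated and 629 and 771 TPM in irradiated skin. Here the spread within each group was small beside the gap between the groups, a difference of 1.39 ± 0.34 log2. H2-Eb1 overlaps the antisense gene Gm20513 by 2204 bases, at 20.2 TPM in non-UVB 1 and listed at 0 in every other library. The part of Gm20513 in the H2-Eb1 values was not tested. H2-Aa, the alpha chain of I-A, had 1018 and 229 TPM in non-irradiated and 897 and 1007 TPM in irradiated skin. Non-UVB 2 alone was low, and the other 3 libraries lay within 897 to 1018 TPM. The difference of 0.97 ± 0.83 log2 became -0.10 without non-UVB 2.

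The chains of 1 molecule thus did not keep a fixed ratio. H2-Aa stood at 0.642 and 0.257 of H2-Ab1 in non-irradiated and 0.429 and 0.479 in irradiated skin, so the non-UVB libraries bracketed the UVB ones. H2-Eb1 stood at 0.170 and 0.290 of H2-Ab1 in non-irradiated and 0.301 and 0.367 in irradiated skin. H2-Ea, chosen after its values were seen, encodes the alpha chain that pairs with the H2-Eb1 product. It was listed at 0 in all 4 libraries, as were H2-Eb2 and H2-Pa, and none of the 4 further genes of the locus found passed the filter for testing. As background, mouse strains of the H2 b haplotype, which include the reference strain, do not transcribe H2-Ea. Which strain these mice were is unknown from the sources used here.

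Cd74 was higher with UVB, as were H2-Ab1 and H2-Eb1. The values of Cd74 were 3101 and 1940 TPM in non-irradiated and 4237 and 3838 TPM in irradiated skin, with no overlap and a difference of 0.72 ± 0.34 log2. Within number 1 Cd74 differed by 0.45 log2 with UVB and H2-Aa by -0.18. Cd74 also encodes a surface receptor for the cytokine MIF. The summed chains H2-Aa, H2-Ab1 and H2-Eb1 came to 2874 and 1379 TPM in non-irradiated and 3617 and 3880 TPM in irradiated skin. Cd74 stood at 1.08 and 1.41 of this sum in non-irradiated and 1.17 and 0.989 in irradiated skin, so the groups overlapped. Against H2-Ab1 alone the ratio lay between 1.83 and 2.18 in all 4 libraries. The ratio of Cd74 to H2-Ab1 therefore varied less between libraries than either ratio among the chains.

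**Figure D2:**
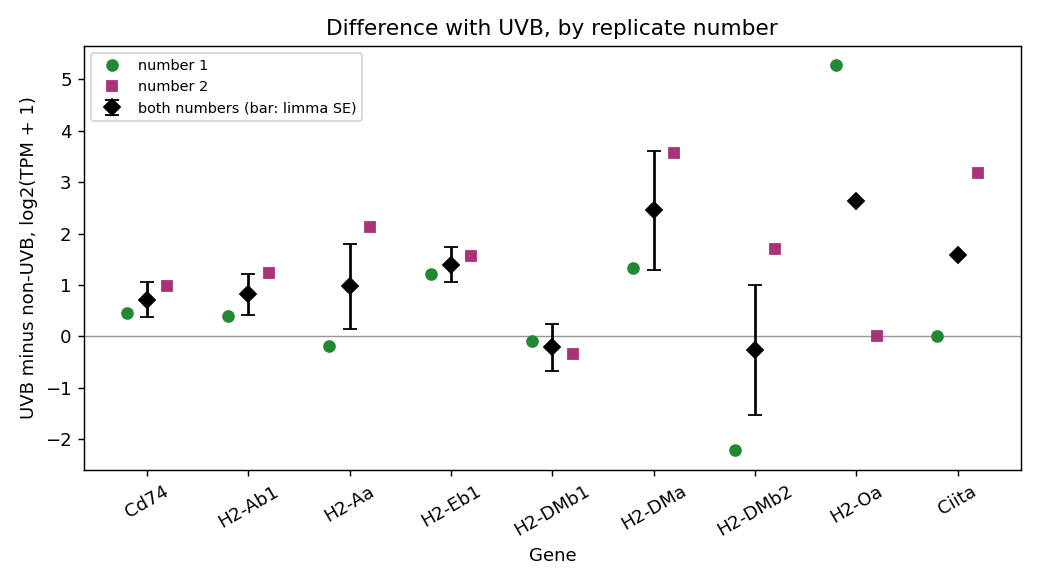
Difference between UVB and non-UVB libraries for each gene on the log2(TPM + 1) scale, over all 4 libraries (diamonds, with limma SE as bars where the gene was tested), within number 1 (circles) and within number 2 (squares). H2-Ab1, H2-Eb1, H2-DMa and Cd74 are above 0 within both numbers, H2-DMb1 is below 0 within both, and H2-Aa and H2-DMb2 change side.

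The subunits of H2-DM, the peptide editor that needs an alpha and a beta chain, went different ways. H2-DMa, the alpha chain, had 54.3 and 7.56 TPM in non-irradiated and 139 and 99.9 TPM in irradiated skin, a difference of 2.45 ± 1.15 log2. Both UVB values were higher, and non-UVB 2 was the lowest by far. H2-DMb1, the main beta chain gene in these libraries, had 214 and 176 TPM in non-irradiated and 202 and 138 TPM in irradiated skin, a difference of -0.21 ± 0.46 log2. Its groups overlapped, and its values were lower in the UVB library of each number, but the difference was 0.06 without UVB 2. H2-DMb2, the second beta chain gene, had 87.8 and 13.8 TPM in non-irradiated and 18.1 and 46.9 TPM in irradiated skin. It was lower with UVB within number 1 and higher within number 2, and its difference of -0.26 ± 1.26 log2 was 1.03 without non-UVB 1 and 0.40 without UVB 1.

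H2-DMa therefore stood at 0.180 and 0.0398 of the summed beta chain genes in non-irradiated and 0.629 and 0.540 in irradiated skin. This was the widest separation of groups among the ratios between class II genes computed here. In the deposited columns, H2-DMa had the lowest coverage divided by FPKM of the members above 0 in each library. It was 0.231 and 0.269 in non-irradiated and 0.300 and 0.170 in irradiated skin, while for H2-Ab1 it lay between 0.697 and 1.29. The other members differed among themselves as well, from 1.01 for H2-Aa to 2.90 for H2-Eb1 in non-UVB 1. The cause was not tested. H2-DMa also overlaps Brd2, a chromatin reader on the other strand, by 3094 bases, and 6.58% of the 100-base windows of its GENCODE M21 transcripts occur in transcripts of Brd2. Brd2 was listed at 1.98 and 24.7 TPM in non-irradiated and 31.4 and 42.8 TPM in irradiated skin, and strand was not stated for the counting. Its part in the H2-DMa values was not tested. H2-DMb1 and H2-DMb2 share 179 windows of 100 bases, 11.3% and 10.3% of their own, so the authors' counting could split reads between them. Their sum, which avoids this split, was 301 and 190 TPM in non-irradiated and 220 and 185 TPM in irradiated skin.

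**Figure D3:**
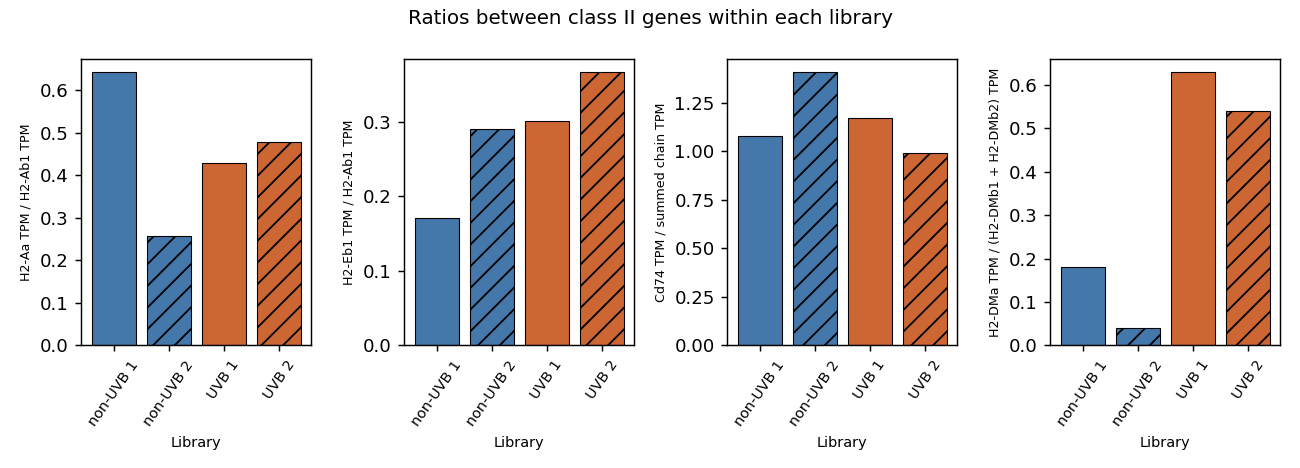
Ratios of TPM between class II genes within each library (bars from 0; blue, non-UVB; orange, UVB; hatched, number 2). The ratio of H2-DMa to the summed H2-DMb genes is 0.629 and 0.540 with UVB against 0.180 and 0.0398 without, while Cd74 per summed chains stays between 0.989 and 1.41.

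H2-Oa and Ciita were each above 0 in 1 library and listed at 0 in the other 3. H2-Oa, the alpha chain of the H2-DM inhibitor, was listed at 0 TPM in both non-UVB libraries and in UVB 2, and at 37.7 TPM in UVB 1. Its partner H2-Ob, a gene of the same region and not among the 9, was listed at 0 in both libraries numbered 1, at 0.227 TPM in non-UVB 2 and at 51.7 TPM in UVB 2. The 2 chains of H2-O were thus never found in the same library. H2-Oa lies within an antisense gene, BC051537, at 0.935 TPM in UVB 1 and listed at 0 in the other 3 libraries. Ciita was listed at 0 in 3 libraries and at 8.04 TPM in UVB 2. It overlaps Dexi on the other strand, at 95.9 and 180 TPM in non-irradiated and 44.1 and 14.4 TPM in irradiated skin. Class II chains at 229 to 2102 TPM therefore stood beside a transactivator that 3 of 4 libraries did not register, and no fold is given for either gene.

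Across the 9 genes, 4 had UVB libraries that lay above both non-UVB libraries, where 23.2% of the 10286 genes tested did, and 0 lay below both, where 9.71% did. The same 4, H2-Ab1, H2-Eb1, H2-DMa and Cd74, were higher within both replicate numbers, against 34.0% of all genes tested, and H2-DMb1 was lower within both, against 17.7%. Means were higher with UVB for 5 of the 7 tested genes, with a median of 0.82 log2, against 61.0% and 0.26 log2 for all genes tested. H2-Oa and Ciita, above 0 in 1 UVB library each, bring this to 7 of 9. Of the 9 genes, 7 passed the filter of 1 TPM in 2 libraries and H2-Oa and Ciita did not. The median difference over all 9 was 0.97 log2. Since these genes were chosen with the same contrast known, nothing is read from these counts. In limma's moderated test 0 of 10286 genes (0%) had a Benjamini-Hochberg adjusted p under 0.05 with UVB, and 1167 (11.3%) reached an unadjusted p under 0.05, 9.97% upward and 1.37% downward. Scaling matters for the size: with the median tested gene set equal in all libraries, Cd74 differed by 0.07 log2, H2-Ab1 by 0.18 and H2-Eb1 by 0.75, while the median of all genes lay at -0.27.

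The same genes were compared by replicate number. H2-DMb1 was lower in both libraries numbered 2, at 176 and 138 TPM, than in both numbered 1, at 214 and 202 TPM, and it was the 1 gene of the 9 without overlap, where 18.5% of genes tested were lower and 22.5% higher without overlap. Mean log2 levels were lower in number 2 for 7 of the 9 genes, where 53.4% of genes tested were higher, with a median difference of -0.41 log2 against 0.10 for all genes tested. For Cd74 the difference was -0.41 ± 0.42 log2 and for H2-Ab1 -0.41 ± 0.50. Both reversed to 0.08 and 0.21 without non-UVB 2, the library with the lowest level of 6 of the 7 genes above 0 in all libraries. In limma's test 0 of 10286 genes passed by number (0%) and 1290 (12.5%) reached an unadjusted p under 0.05, 5.65% upward and 6.89% downward. The gap between the numbers seen for Trdv4 was not seen for the class II chains, whose sum differed 1.23-fold between the means of numbers 1 and 2.

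The gap between UVB and non-UVB was wider within number 2. Without non-UVB 2 the differences were 0.40 log2 for H2-Ab1, 0.38 for Cd74, 1.10 for H2-DMa and 1.36 for H2-Eb1. The summed chains were 1.26-fold higher in UVB 1 than in non-UVB 1 and 2.81-fold higher in UVB 2 than in non-UVB 2. H2-DMa was 13.2-fold and H2-Aa 4.40-fold higher within number 2. Whether the effect differed between the numbers cannot be tested with 1 library per group in each.

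Markers of class II-bearing cells were set beside these genes. Of 15 macrophage and monocyte markers, 13 were tested, and 12 had a higher mean with UVB (61.0% of all genes tested), 9 of them within both numbers (34.0%) and 2 without overlap (23.2%). Their sum was 7454 and 2206 TPM in non-irradiated and 14342 and 6043 TPM in irradiated skin. Fcer1g, the Fc receptor gamma chain and the most abundant of them, had 1852 and 1056 TPM in non-irradiated and 3659 and 1265 TPM in irradiated skin, a difference of 0.62 ± 0.67 log2. None of the 13 passed limma's test or had an unadjusted p under 0.05, which 11.3% of all genes tested had. The median of the list was 1.33 log2 with UVB and -2.50 log2 for number 2 minus number 1, and 10 of the 13 were lower in number 2 without overlap (18.5%). The sum was 2.64-fold higher in number 1 than in number 2, by means. Mrc1 and Mertk, chosen after their values were seen, did not pass the filter, Mrc1 being listed at 0 in both libraries without UVB and Mertk in all but UVB 1. The part of these cells in the class II differences was not tested. In bulk RNA, more cells of a type and more RNA per cell cannot be told apart.

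Per unit of the summed macrophage and monocyte markers, the summed chains stood at 0.386 and 0.625 in non-irradiated and 0.252 and 0.642 in irradiated skin. Both values of the libraries numbered 2 were above those of number 1, and the groups by UVB overlapped. Since the markers differ between libraries themselves, the ratio does not show which cells held the class II RNA.

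**Figure D4:**
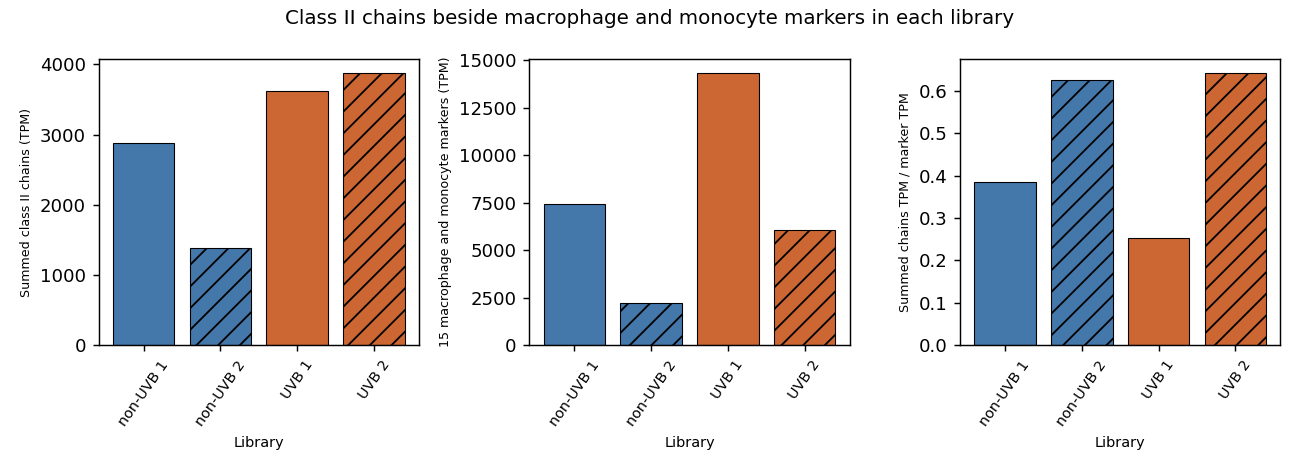
Summed TPM of H2-Aa, H2-Ab1 and H2-Eb1, summed TPM of 15 macrophage and monocyte markers, and the first divided by the second, in each library (bars from 0; blue, non-UVB; orange, UVB; hatched, number 2). The chains stand at 3617 and 3880 TPM in the UVB libraries against 2874 and 1379 TPM, and the markers are lower in number 2 within each group.

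Dendritic and Langerhans cell markers did not form a common pattern. Of 14 genes, 7 were tested, with 4 higher and 3 lower means with UVB, beside 61.0% higher among all genes tested. Without overlap 2 were higher and 0 lower, against 23.2% and 9.71% of all genes tested. The 2 were Epcam and Dpp4, chosen after their values were seen. Both reached 1 TPM only in the UVB libraries, so the filter admitted them through that group. The list summed to 383 and 1030 TPM in non-irradiated and 277 and 648 TPM in irradiated skin. Ccr7, a homing receptor of migrating dendritic cells that T cells also express, was the most abundant on average, at 41.0 and 814 TPM without UVB against 54.8 and 208 TPM with it. It thus made up 814 of the 1030 TPM of the list in non-UVB 2. Cd207, the langerin gene of Langerhans cells, stood outside the naming rule and had 147 and 110 TPM in non-irradiated and 113 and 262 TPM in irradiated skin. Of these markers, 6, 6, 6 and 3 were listed at 0 in non-UVB 1, non-UVB 2, UVB 1 and UVB 2. Of 11 B cell markers, 5 were listed at 0 in all 4 libraries, among them Ms4a1, Cd79a and Pax5. Of the 3 markers tested, 1 had a higher and 2 a lower mean with UVB, with 0 past limma's test. The most abundant, Ighm, had 118 and 455 TPM in non-irradiated and 373 and 368 TPM in irradiated skin. The other markers tested, Cd79b and Blk, were chosen after their values were seen. Cd79b had 61.9 and 18.5 TPM in non-irradiated and 21.2 and 39.96 TPM in irradiated skin. Blk, also on the gamma-delta list, had 254 and 0.649 TPM in non-irradiated and 254 and 0.545 TPM in irradiated skin.

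Genes that cut the invariant chain and the antigen were measured as a list. Of 12 genes of class II antigen processing 10 were tested, 6 with a higher and 4 with a lower mean, beside 61.0% higher among all genes tested, and 0 passed limma's test. The median was 0.92 log2. Ctss encodes cathepsin S, which makes the last cuts in the invariant chain, and it had 854 and 445 TPM in non-irradiated and 1623 and 981 TPM in irradiated skin, a difference of 1.03 ± 0.51 log2 (limma adjusted p = 0.698). The summed chains per Ctss were 3.36 and 3.10 in non-irradiated and 2.23 and 3.96 in irradiated skin. Sppl2a, an intramembrane protease that clears the invariant chain stub, was at 0.0131 and 0.187 TPM in non-irradiated and 29.99 and 8.86 TPM in irradiated skin. Its unadjusted p of 0.0179 became an adjusted p of 0.245 in limma's test. Sppl2a reached 1 TPM only in the UVB libraries, so it passed the filter only through the group where it was high. It was also named for its small p, so nothing is read from that p.

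The partners of CIITA at class II promoters did not share 1 direction. Of 11 such genes 8 were tested, with 4 higher and 4 lower means, a median of 0.24 log2 and 0 past limma's test. Among all genes tested 61.0% had a higher mean, and the median was 0.26 log2. Rfxank, a subunit of the RFX complex that binds the X box, had 40.1 and 24.7 TPM in non-irradiated and 0.389 and 0.161 TPM in irradiated skin, a difference of -4.68 ± 1.04 log2 (limma unadjusted p = 0.0115, adjusted p = 0.223). Rfxank reached 1 TPM only in the non-UVB libraries, so the filter admitted it only through the group where it was high. Being named for its small p as well, it gives a p from which nothing is read. Rfx5, the DNA-binding subunit, chosen after its values were seen, was listed at 0 in 3 libraries and at 0.0530 TPM in non-UVB 2. Nfyb, a subunit of the Y-box factor NF-Y, had 62.4 and 49.0 TPM in non-irradiated and 57.2 and 3.51 TPM in irradiated skin. Rfxap, the third RFX subunit, was chosen after its values were seen and stood at 14.99 and 0.271 TPM in non-irradiated and 15.01 and 32.5 TPM in irradiated skin.

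Class I presentation genes were set beside class II as the other antigen display pathway. Of 17 genes 16 were tested, 7 with a higher and 9 with a lower mean with UVB, beside 61.0% higher among all genes tested. Their median was -0.16 log2. B2m had 7415 and 8507 TPM in non-irradiated and 7640 and 6379 TPM in irradiated skin, a difference of -0.19 ± 0.24 log2. Erap1, an aminopeptidase that trims class I peptides, was listed at 0 and at 0.495 TPM in non-irradiated and 6.55 and 2.88 TPM in irradiated skin (limma unadjusted p = 0.0308, adjusted p = 0.336). Erap1 reached 1 TPM only in the UVB libraries, so it was tested only because of the group where it was high. Nothing is read from its p, for which it was also named. Of these 16 genes 0 passed limma's test, where 0 of all 10286 genes tested did, so this does not set the list apart.

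Close matches to the class II profile over the 4 libraries were found among other genes. Profiles were compared on log2(TPM + 1) centred on each gene's mean, as the root mean squared difference from the mean profile of H2-Aa, H2-Ab1, H2-Eb1 and Cd74. Predicted (Gm), Rik and clone-named genes, mitochondrial genome and ribosomal protein genes, and immunoglobulin and T cell receptor segments were left out beforehand. That left 4778 other genes whose mean reached 20 TPM. The nearest of them were Snrpe, at 0.05 log2, Hnrnpu, at 0.06, Map4k1, at 0.08, Phgdh, at 0.10, Ywhaq, at 0.12, and Smim11, at 0.12. Snrpe, a core spliceosome protein, had 492 and 245 TPM in non-irradiated and 641 and 656 TPM in irradiated skin. H2-Ab1 itself lay at 0.09 and Cd74 at 0.18, with 3 and 18 other genes nearer, while H2-Eb1 lay at 0.38 and H2-Aa at 0.43, with 142 and 235 other genes nearer. Each of these 4 genes is part of the profile it was measured against, which shortens its distance by construction. Their distances are thus not comparable with those of other genes. H2-DMb1 lay at 0.68, H2-DMb2 at 0.96 and H2-DMa at 0.98. With 4 libraries, likeness of profiles is a description only.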

How the data were processed

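RNA was measured in 4 libraries, 2 per group, prepared from total RNA with a SMARTer kit for very small inputs and read as 100 bp single-end reads, per the labels' protocols. HISAT2, StringTie and DESeq2 with GRCm38 are named, without version or role, per the submitters' processing notes. Per the file headers, the authors deposited coverage (mean read depth per base, a signal not scaled to library size), FPKM and TPM for each gene. Depth was derived from the largest value of coverage divided by FPKM among the genes of each library. Counting intervals were not computed, since read numbers are not among the values used.

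Rows of a gene ID were summed. The 10286 of 55487 genes that reached 1 TPM in 2 or more libraries were fitted on log2(TPM + 1) with limma 3.58.1 (R 4.3.3), group as the only term, with an intensity trend, and p-values were Benjamini-Hochberg adjusted with a threshold of 0.05. The same fit was run by replicate number. The median SE of a difference with UVB was 1.12. The test was tried on simulated data first. The 9 genes and the 12 further lists (135 of 137 members found) were chosen with earlier results of these data known. Named from a list are its most abundant gene and, in each direction, the gene with the smallest unadjusted p under 0.05. Other names are marked as chosen after their values were seen, except Foxp3, the label check, the genes listed at 0 and overlapping genes. Alternatives changed the pseudocount, filter, unit, scaling, trend and block and left out each library.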

Additional observations from a re-analysis of the deposited data

How the results depend on the processing

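With UVB, 0 genes passed under each of the 13 alternatives run, and by replicate number 13 passed after quantile normalization and 0 under the others. No source says that a replicate number marks a shared animal or day. The deviations of same-numbered libraries correlated at 0.165 across 10286 genes, and a replicate block gave 0 genes past the threshold and 1110 with an unadjusted p under 0.05, against 1167 without it. The median difference of the 9 genes lay between 0.33 and 0.98 log2 under scaling, unit and pseudocount alternatives, and the filter could not change it. It lay between 0.40 and 1.43 with 1 library left out, and at 0.40 and 1.57 in the libraries numbered 1 and 2 alone. The log2 ratio of the summed chains was 0.82, from 0.24 under median scaling, and between 0.38 (without non-UVB 2) and 1.44 (without non-UVB 1) with 1 library left out. Genes of the 9 with UVB above non-UVB without overlap numbered 4, and between 4 and 6 with 1 library left out, an alternative added after seeing the data. Leaving out a library can only keep or raise this count, so it is no check of it. Of 218 alternative values for single genes over both comparisons, 12 had the opposite sign, each with 1 library left out, and 4 were 0. The 218 include filter and block alternatives, which leave the difference of a gene unchanged by construction and so are no check of it. Summed as 1 gene, also added after seeing the data, H2-DMb1 and H2-DMb2 differed by -0.24 log2 with UVB. With 1 library left out, its partner stood alone and the spread came from the remaining group, as if both groups varied alike. Precision is limited by 2 libraries per group.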

Other observations

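Costimulatory ligands, which antigen-presenting cells display beside class II, were measured as a further list. Of 7 such genes 5 were tested, with 4 higher and 1 lower mean with UVB, and 0 passed limma's test or had an unadjusted p under 0.05. Among all genes tested, 61.0% had a higher mean and 11.3% an unadjusted p under 0.05 in limma's test, so these counts do not set the list apart. Cd83, a surface protein that stabilises class II on mature dendritic cells, was the most abundant, at 448 and 85.8 TPM in non-irradiated and 226 and 172 TPM in irradiated skin. Cd80, chosen after its values were seen, was listed at 0 and at 0.0472 TPM in non-irradiated skin and stood at 22.6 and 0.798 TPM in irradiated skin.

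Interferon gamma is the classical inducer of Ciita. Its gene Ifng, chosen after its values were seen, was at 0.0348 TPM in non-UVB 1 and 10.8 TPM in UVB 1, listed at 0 in non-UVB 2 and at 0.0446 TPM in UVB 2, the library with Ciita. Ifngr1, a receptor chain and the most abundant gene of its list, had 212 and 324 TPM in non-irradiated and 269 and 621 TPM in irradiated skin, a difference of 0.64 ± 0.60 log2. Of 10 genes of this pathway 9 were tested, with 6 higher and 3 lower means and 0 past limma's test, and 0 had an unadjusted p under 0.05. The shares over all genes tested were 61.0% with a higher mean and 11.3% with an unadjusted p under 0.05 in limma's test, so these counts do not set the list apart.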
